A study of Homo sapiens with 6 samples.

Results

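The 9 genes described here encode core parts of the PI3K, AKT and mTOR pathway: the PI3-kinase subunits PIK3CA and PIK3R1, the kinases AKT1 and AKT2, the kinase MTOR, its complex partners RPTOR and RICTOR, and the inhibitory pair TSC1 and TSC2. They were taken by gene symbol as core members of the pathway, and all 9 are among the 56638 symbols counted. Their read counts came from total RNA of DLD-1, an established line of human colorectal cancer cells known to carry an activating mutation in PIK3CA. One group of 3 libraries came from cells transfected with an siRNA to lncSLCC1, a non-coding RNA counted as RP11-400N13.2, and the other 3 libraries from cells transfected with a control siRNA. The comparison asks how transcript levels differ once lncSLCC1 is targeted. All libraries are from 1 cell line, and neither the time after transfection nor the siRNA sequence was known here. Whether replicates were separate cultures is not stated, so the spread that p-values rest on may be technical.

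PI3-kinase is a pair of a catalytic and a regulatory subunit that makes the membrane lipid PIP3 when growth factor receptors are active. PIP3 recruits AKT, which phosphorylates many proteins, among them the TSC complex, a brake on the small GTPase RHEB, and the FOXO transcription factors, which leave the nucleus when AKT is active. RHEB switches on mTOR complex 1, defined by RPTOR, which promotes protein synthesis and restrains autophagy, whereas mTOR complex 2, defined by RICTOR, phosphorylates AKT itself. Most of this signalling runs through phosphorylation, which RNA-seq does not measure. In colorectal cancer the pathway is often activated through mutations in PIK3CA.

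Of the 9 genes, 1 rose after lncSLCC1 siRNA and 0 fell (0 also at an unadjusted p under 0.05, by DESeq2 and by limma-voom), against a background of 6.46% of all tested genes higher and 7.39% lower. The riser was PIK3CA, which encodes the p110 alpha catalytic subunit. Tests were made with edgeR's quasi-likelihood test over 15242 genes with enough reads, and a gene was called at a Benjamini-Hochberg adjusted p under 0.05. All 9 genes were tested, and the call of 1 in 9 stands beside 13.8% of all tested genes. At an unadjusted p under 0.05 there were 3 of the 9, PIK3CA, MTOR and RPTOR, against 4819 of all 15242 tested genes. The groups did not overlap in 4 of the 9 genes, against 39.0% of all tested genes. The median log2 fold change of the 9 was 0.05, beside 0.01 over all tested genes. Higher genes made up 46.6% of all calls, 63.7% with library totals and 38.1% with offsets for GC content and length. Neither the count of calls nor the count of separated genes set these 9 apart from the rest of the transcriptome. As in any bulk sample, fewer cells with a transcript and less of it per cell cannot be told apart.

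PIK3CA stood at 20.7, 21.1 and 20.6 CPM (read counts scaled to a common library size) in lncSLCC1 siRNA libraries 1, 2 and 3, against 8.47, 15.1 and 14.9 CPM in control libraries 1, 2 and 3. The lncSLCC1 siRNA libraries were nearly equal and all lay above every control, while control replicate 1 lay far below the other 2 controls. The means were 20.8 ± 0.268 CPM after lncSLCC1 siRNA and 12.8 ± 3.77 CPM in controls (SD, n = 3 each), a 1.61-fold difference (log2 fold change 0.69 with SE 0.190 and 95% interval 0.27 to 1.12, edgeR adjusted p = 0.0399). These values rest on 264 to 330 reads per lncSLCC1 siRNA library and 119 to 232 reads per control library. Without control replicate 1 the log2 fold change of PIK3CA was 0.47 (edgeR adjusted p = 0.00104), 1 of 3 calls among the 9 genes in a fit that called 29.0% of all genes. It was no longer called when control replicate 2 (adjusted p = 0.0781) or lncSLCC1 siRNA replicate 1, 2 or 3 (0.117, 0.141 and 0.127) was left out, at log2 fold changes of 0.82, 0.69, 0.68 and 0.70. Those fits called fewer genes of all kinds, 213 to 272 higher and 244 to 352 lower. With all 6 libraries 984 were higher and 1126 lower, so the loss was not particular to PIK3CA. PIK3CA shares 35.8% of its annotated exon bases with KCNMB3, a potassium channel subunit gene on the opposite strand. KCNMB3 itself stood at 3.39 to 4.15 CPM after lncSLCC1 siRNA, against 2.73 to 5.05 CPM in controls. Because the strand setting of the counting is not given, it is not known how reads from the shared stretch were counted, or whether they were left out as ambiguous. PIK3CA is also known to have a partial copy elsewhere in the genome.

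The DNA just before the RefSeq start of PIK3CA is shown because PIK3CA is the called member and its window holds a forkhead motif, the letters that FOXO factors are known to bind. The sequence is the 250 bases before the RefSeq start in GRCh38.p14, chr3:179148107-179148356, plus strand, 5′ to 3′. Capitals mark TGTTTAC, the reverse complement of the motif GTAAACA, 149 bases before the start. In the GENCODE 29 annotation of the same genome PIK3CA starts at position 179148114, so nearly all of this window, the motif included, lies inside the gene as annotated there.
PIK3CA: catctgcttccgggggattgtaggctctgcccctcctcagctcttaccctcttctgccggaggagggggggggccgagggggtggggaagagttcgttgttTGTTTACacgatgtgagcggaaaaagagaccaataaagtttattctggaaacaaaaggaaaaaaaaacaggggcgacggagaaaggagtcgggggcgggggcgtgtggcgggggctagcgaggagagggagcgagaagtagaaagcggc
The motif was searched on both strands. Among the 9 genes, all of which had at least 1 window, PIK3CA was the only one with a match, in 1 of 15 windows. Over all genes with such a window, 3.66% held the motif in at least 1. The match describes these letters and shows no binding.

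PIK3R1 encodes p85 alpha, the regulatory subunit that binds and stabilises the catalytic one. It stood at 35.7, 36.1 and 35.2 CPM in lncSLCC1 siRNA libraries 1, 2 and 3, against 31.9, 38.1 and 43.1 CPM in control libraries 1, 2 and 3. The lncSLCC1 siRNA libraries fell inside the spread of the controls, and it was not called (log2 fold change -0.08 with SE 0.118 and 95% interval -0.34 to 0.18, edgeR adjusted p = 0.676). The log2 ratio of PIK3CA to PIK3R1 reads, which does not depend on library scaling, was -0.79, -0.77 and -0.77 after lncSLCC1 siRNA and -1.90, -1.33 and -1.53 in control libraries 1, 2 and 3. The ratio was higher in each of the 3 lncSLCC1 siRNA libraries than in all 3 controls, by 0.81 on average, and no test of it was made.

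The AKT kinases, which carry the signal from PIP3 to their substrates, differed little. AKT1 stood at 169.9, 168 and 168 CPM in lncSLCC1 siRNA libraries 1, 2 and 3, against 179, 172 and 176 CPM in control libraries 1, 2 and 3. All 3 lncSLCC1 siRNA libraries lay below all 3 controls, but by so little that it was not called (log2 fold change -0.06 with SE 0.070 and 95% interval -0.21 to 0.10, edgeR adjusted p = 0.609). With library totals in place of TMM scaling it was 0.01. AKT2, the isoform best known for insulin responses, stood at 163, 168 and 167 CPM after lncSLCC1 siRNA, against 194, 166 and 184 CPM in controls. Control replicate 2 lay inside the lncSLCC1 siRNA range, and AKT2 was not called either (log2 fold change -0.13 with SE 0.081 and 95% interval -0.31 to 0.05, edgeR adjusted p = 0.312). Its call under GC content and length offsets is given with those values. The log2 ratio of AKT1 to AKT2 averaged 0.02 ± 0.032 after lncSLCC1 siRNA and -0.04 ± 0.085 in controls (SD, n = 3 each), and the groups overlapped.

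**Figure D1:**
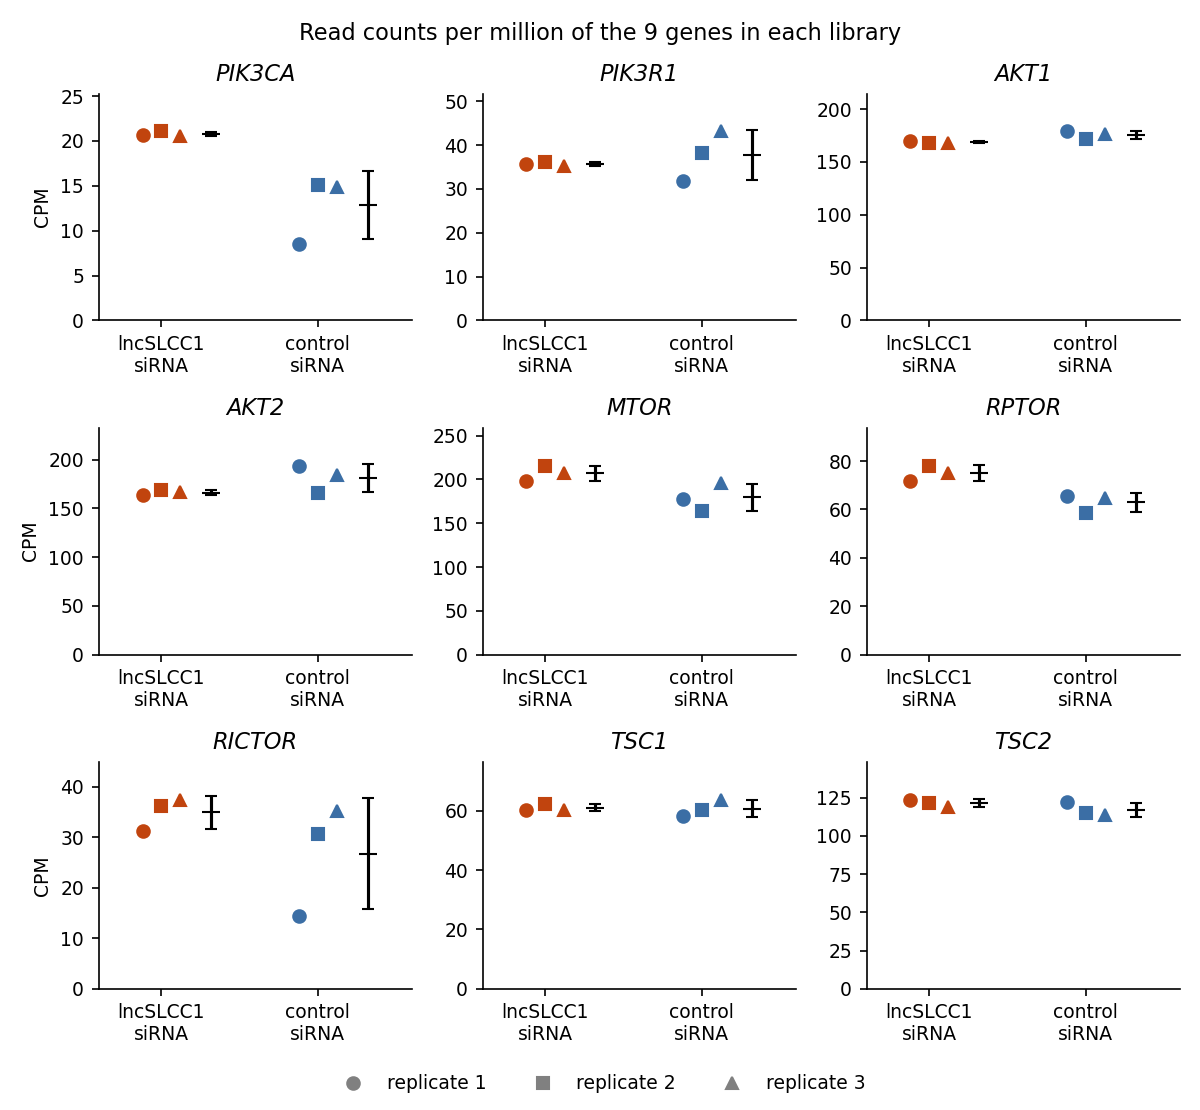
CPM (y axis, TMM library sizes, starting at 0) of each of the 9 genes in the 3 lncSLCC1 siRNA libraries and the 3 control siRNA libraries; symbols mark the replicate and the bar gives mean ± SD. PIK3CA, MTOR, RPTOR and AKT1 have groups that do not overlap, and the lowest points of PIK3CA and RICTOR are both control replicate 1.

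MTOR and RPTOR, which together form the catalytic and scaffold parts of mTOR complex 1, had higher values in all 3 lncSLCC1 siRNA libraries than in all 3 controls, without passing the test. MTOR stood at 198, 216 and 207 CPM in lncSLCC1 siRNA libraries 1, 2 and 3, against 178, 165 and 196 CPM in control libraries 1, 2 and 3. Its nearest libraries, lncSLCC1 siRNA replicate 1 and control replicate 3, were close to each other (log2 fold change 0.21 with SE 0.085 and 95% interval 0.02 to 0.40, unadjusted p = 0.0366 and edgeR adjusted p = 0.13). RPTOR, whose product raptor presents substrates to mTOR, stood at 71.7, 78.2 and 75.1 CPM after lncSLCC1 siRNA, against 65.6, 58.4 and 64.8 CPM in controls. Its groups were further apart than those of MTOR for their spread (log2 fold change 0.25 with SE 0.087 and 95% interval 0.06 to 0.45, edgeR adjusted p = 0.0793). Without control replicate 1 both genes were called, MTOR at a log2 fold change of 0.20 (adjusted p = 0.0271) and RPTOR at 0.28 (edgeR adjusted p = 0.00367). MTOR was also called without control replicate 3, at 0.27 (adjusted p = 0.0354), and RPTOR with library totals, at 0.32 (adjusted p = 0.0313). The fit without control replicate 3 called 1614 of 15628 tested genes higher and 2088 lower. That with library totals called 1441 of 15242 higher and 821 lower. With all 6 libraries and TMM scaling, 984 of 15242 were higher and 1126 lower.

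RICTOR, the scaffold of mTOR complex 2, varied more among controls than any of the other 8 genes. It stood at 31.2, 36.1 and 37.5 CPM in lncSLCC1 siRNA libraries 1, 2 and 3, against 14.4, 30.7 and 35.3 CPM in control libraries 1, 2 and 3. Control replicate 1 had less than any other library, and the other 2 controls lay within or just below the lncSLCC1 siRNA range. The controls' coefficient of variation was 41.0%, against 9.43% in lncSLCC1 siRNA libraries, and RICTOR was not called (log2 fold change 0.38 with SE 0.258 and 95% interval -0.19 to 0.96, edgeR adjusted p = 0.341). Its log2 fold change was 0.08 without control replicate 1 (edgeR adjusted p = 0.542) and 0.62 without control replicate 3. Of 14 alternatives, RICTOR was called in 1, with no filter on low counts (adjusted p = 0.0339). The log2 ratio of RPTOR to RICTOR was 1.196, 1.11 and 1.00 after lncSLCC1 siRNA and 2.18, 0.93 and 0.88 in control libraries 1, 2 and 3. It placed control replicate 1 above and the other 2 controls below all lncSLCC1 siRNA libraries.

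The tuberous sclerosis genes, whose products hamartin and tuberin restrain RHEB, differed by less than the spread between libraries. TSC1 stood at 60.4, 62.4 and 60.4 CPM after lncSLCC1 siRNA, against 58.2, 60.5 and 63.8 CPM in controls, with a log2 fold change of 0.01 (SE 0.083, 95% confidence interval -0.18 to 0.19, edgeR adjusted p = 0.97). TSC2, which carries the GTPase-activating part of the complex, stood at 124, 122 and 119 CPM after lncSLCC1 siRNA, against 122, 115 and 114 CPM in controls (log2 fold change 0.05 with SE 0.075 and 95% interval -0.11 to 0.22, edgeR adjusted p = 0.663). In both genes the groups overlapped.

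**Figure D2:**
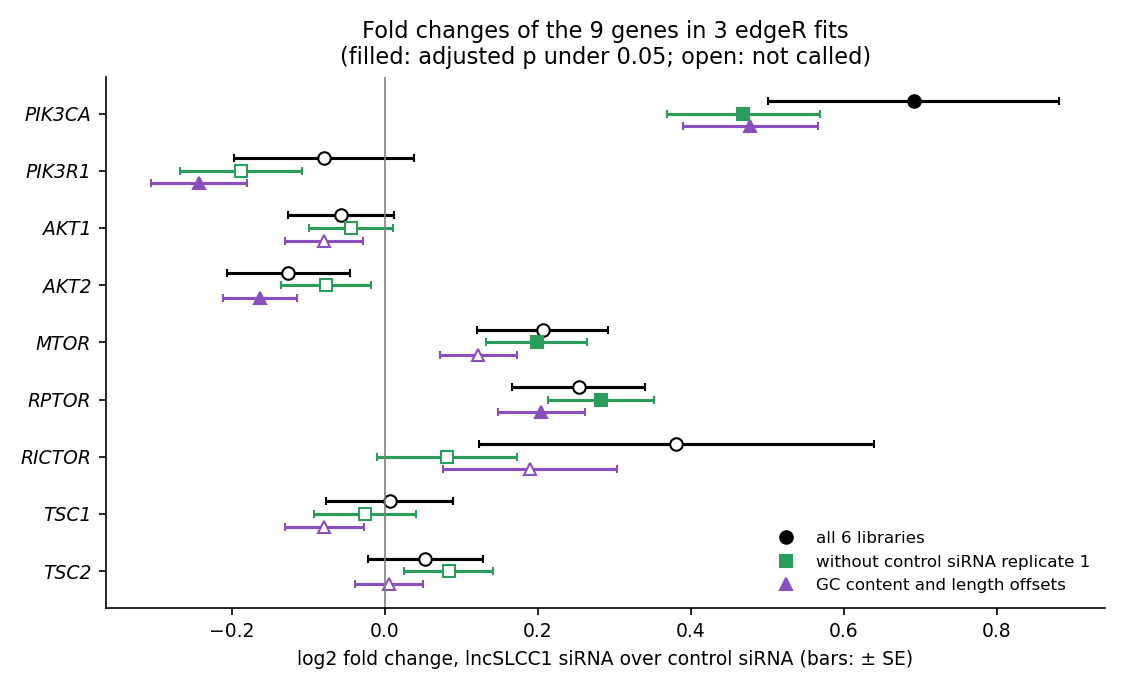
Log2 fold change (x axis) of the 9 genes, lncSLCC1 siRNA over control siRNA, with bars of ± SE, in edgeR fits with all 6 libraries, without control replicate 1, and with GC content and length offsets; filled symbols passed an adjusted p of 0.05. PIK3CA is filled in all 3 fits, at 0.69, 0.47 and 0.48, and TSC1, TSC2, AKT1 and RICTOR in none.

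Between genes, levels were compared as CPM per kilobase of the longest annotated transcript, which may differ from the transcripts used in these cells. AKT1 was highest, at 43.1 ± 0.271 CPM per kilobase after lncSLCC1 siRNA and 44.8 ± 0.946 in controls, followed by AKT2 at 31.4 ± 0.498 and 34.2 ± 2.69 CPM per kilobase (SD, n = 3 each). MTOR came next, at 23.9 ± 1.01 after lncSLCC1 siRNA and 20.7 ± 1.83 CPM per kilobase in controls. Its range over all 6 libraries overlapped with that of TSC2, at 19.1 ± 0.388 and 18.4 ± 0.701 CPM per kilobase, although MTOR was the higher of the pair within each library. RPTOR, at 11.7 ± 0.506 and 9.82 ± 0.616, TSC1, at 7.005 ± 0.133 and 6.98 ± 0.323, and PIK3R1, at 5.09 ± 0.0660 and 5.38 ± 0.804 CPM per kilobase, followed without overlap. RICTOR, at 3.66 ± 0.345 after lncSLCC1 siRNA and 2.81 ± 1.15 CPM per kilobase in controls, overlapped with PIK3CA, the lowest of the 9, at 2.28 ± 0.0295 and 1.41 ± 0.415, and was the higher of that pair within each library. TSC2 transcripts thus exceeded TSC1 transcripts per length, and RPTOR exceeded RICTOR, in every library.

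**Figure D3:**
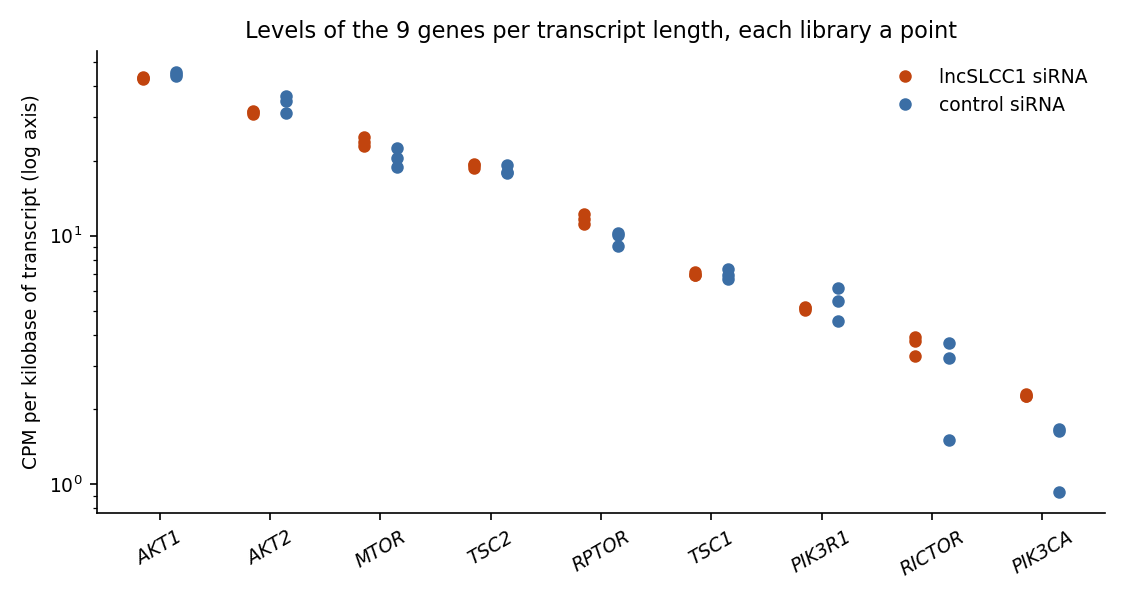
CPM per kilobase of the longest annotated transcript (y axis, log scale) for the 9 genes, ordered by their control level, with 1 point per library for lncSLCC1 siRNA (left of each pair) and control siRNA. Levels run from 45.7 for AKT1 in its highest library to 0.932 for PIK3CA in control replicate 1.

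The genes that varied most among controls were those with the lowest transcript GC content. PIK3CA transcripts hold 34.8% G and C, those of RICTOR 36.5% and those of PIK3R1 40.3%, whereas the other 6 genes run from 48.5% to 60.5%. In control replicate 1 the log2 CPM of RICTOR lay 0.79, that of PIK3CA 0.54 and that of PIK3R1 0.23 below the control mean, and the other 6 genes deviated by -0.06 to 0.10. Over the 3406 tested genes of lowest GC content, up to 42.6%, the median deviation was -0.28 in control replicate 1, and 0.10 and 0.18 in control replicates 2 and 3. In the lncSLCC1 siRNA libraries it ran from -0.02 to 0.01. The median log2 fold change was 0.12 over these genes and -0.07 over the 3406 of highest GC content, from 57.1%. With offsets for the trend of each library on GC content and length, 31.1% of all genes and 4 of the 9 were called. PIK3CA was again higher (log2 fold change 0.48, SE 0.088, adjusted p = 0.00254) and RPTOR was higher (0.20, adjusted p = 0.019), while PIK3R1 was lower (-0.24, adjusted p = 0.0139) and AKT2 was lower (-0.16, edgeR adjusted p = 0.0266). MTOR and RICTOR were not called under these offsets, at 0.12 and 0.19 (adjusted p = 0.0877 and 0.234). What part GC content plays in these differences was not tested further.

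**Figure D4:**
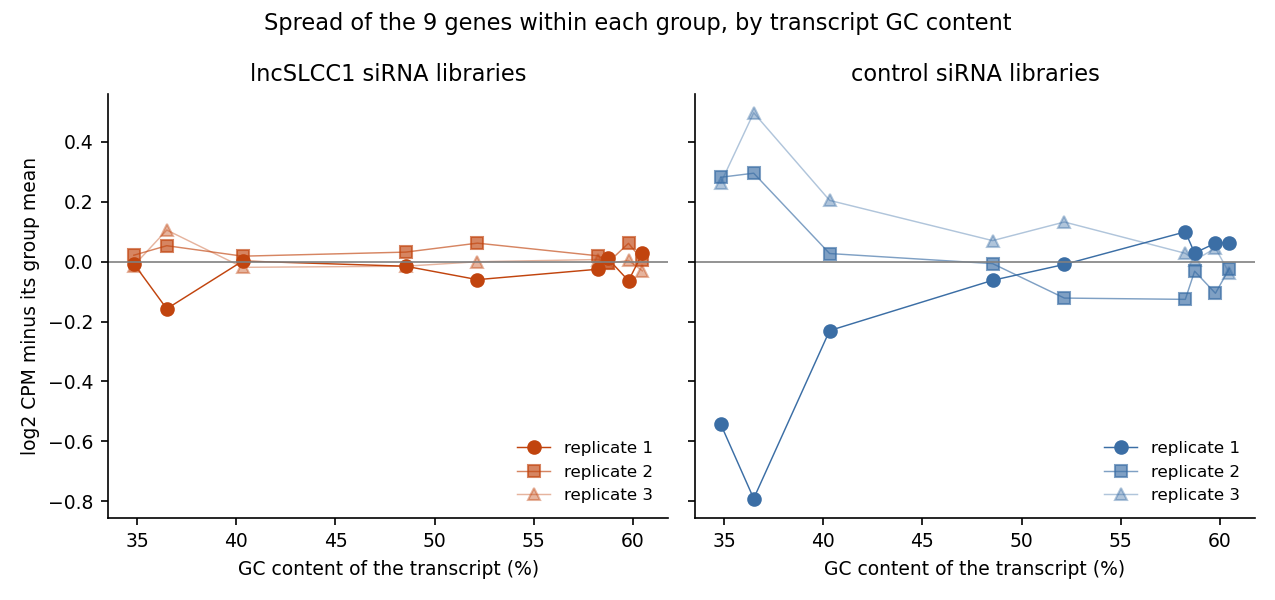
Log2 CPM of each of the 9 genes minus the mean of its group (y axis) against the GC content of its longest transcript in percent (x axis), for lncSLCC1 siRNA libraries (left) and control siRNA libraries (right); lines join the genes of 1 library. Control replicate 1 falls to -0.79 for RICTOR and -0.54 for PIK3CA at the low GC end.

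The pathway around the 9 genes was described with 11 lists holding 121 genes, of which 106 were tested. Of these 7 rose and 6 fell, 12.3% together, beside 13.8% of all tested genes. Their median log2 fold change was 0.05. The calls of each list, given below, stand beside 6.46% of all tested genes higher and 7.39% lower, and the lists are short. In this fit no list held more than 4 calls, and each list with more than 1 call had calls in both directions. By DESeq2, however, 2 AKT substrate genes were higher and 0 lower. With GC content and length offsets, when 31.1% of all genes were called, 2 of 9 receptor and adaptor genes were higher and 0 lower. Without control replicate 1, when 29.0% of all genes were called, 22 pathway genes rose and 18 fell, with up to 9 calls in a list and 3 calls, all higher, among receptors and adaptors. Fits without control replicate 2 or any 1 lncSLCC1 siRNA replicate called only 213 to 272 genes of all higher and 244 to 352 lower. Calls lost in those fits, given below, stand beside that general loss.

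Among receptors and adaptors that activate PI3-kinase, 1 of 9 rose and 0 fell (median log2 fold change 0.28). ERBB3, a receptor that docks PI3-kinase directly, stood at 163, 163 and 161 CPM in lncSLCC1 siRNA libraries 1, 2 and 3, against 118, 102 and 124 CPM in control libraries 1, 2 and 3. All 3 lncSLCC1 siRNA libraries lay well above the controls (log2 fold change 0.50 with SE 0.089, edgeR adjusted p = 0.00752). Leaving out lncSLCC1 siRNA replicate 2 (adjusted p = 0.056) or 3 (0.0532) ended the call. IRS1, the insulin receptor substrate, was higher in all 3 lncSLCC1 siRNA libraries than in all 3 controls without passing the test (0.29, edgeR adjusted p = 0.0866).

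None of the 8 tested genes for other PI3-kinase subunits was called by edgeR, DESeq2 or limma-voom (median 0.11), and at an unadjusted p under 0.05 there were 2, PIK3CD and PIK3C2B. PIK3CB, the other widely expressed catalytic subunit, stood at 40.8 to 43.9 CPM after lncSLCC1 siRNA, against 37.2 to 51.8 CPM in controls (log2 fold change -0.11 with SE 0.127, edgeR adjusted p = 0.582). None of the 9 tested antagonists of PI3-kinase and AKT was called by these tools either (median 0.17), with 3 at an unadjusted p under 0.05 in edgeR. Over all tested genes, 4819 of 15242 had an unadjusted p under 0.05 in edgeR. Without control replicate 1, 3 of these 8 subunit genes and 4 of the 10 antagonist genes then tested were called, beside 29.0% of all genes in that fit. Of PDPK1 and the SGK kinases, relatives and partners of AKT, 0 of 4 tested were called by the same 3 tools, and 0 had an unadjusted p under 0.05.

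Among other subunits and assembly factors of the mTOR complexes, 1 of 8 fell and 0 rose (median -0.04). TELO2, which helps to assemble mTOR and related kinases, stood at 112, 104 and 104 CPM after lncSLCC1 siRNA, against 160, 138 and 125 CPM in controls (log2 fold change -0.40 with SE 0.099, edgeR adjusted p = 0.028). Its groups did not overlap, and the call was lost without control replicate 2 or without any 1 lncSLCC1 siRNA replicate (adjusted p = 0.088 to 0.134). MLST8, a subunit of both complexes, did not pass the test (-0.13, edgeR adjusted p = 0.455). RHEB, the GTPase that TSC2 restrains, was not called by edgeR or limma-voom but was by DESeq2, and RHEBL1 and TBC1D7 were called by none of them. RHEB stood at 28.6, 25.6 and 24.0 CPM after lncSLCC1 siRNA, against 31.2, 35.5 and 33.4 CPM in controls (-0.36 with SE 0.107, edgeR adjusted p = 0.0535).

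The inputs that report amino acids and stress to mTOR complex 1 held the largest called changes in each direction. In the list of Rag GTPases, their lysosomal anchors and regulators, 1 of 29 rose and 2 fell (median -0.02). SESN3, a sestrin that restrains mTOR complex 1 and a known FOXO target, stood at 9.90, 10.7 and 11.1 CPM after lncSLCC1 siRNA, against 2.49, 3.97 and 5.21 CPM in controls (log2 fold change 1.43 with SE 0.215, edgeR adjusted p = 0.00358). LAMTOR2, part of the Ragulator anchor on the lysosome, stood at 22.4, 24.1 and 23.5 CPM after lncSLCC1 siRNA, against 48.1, 40.2 and 36.0 CPM in controls (-0.83 with SE 0.121, edgeR adjusted p = 0.00319). In neither gene did the groups overlap. SESN2, the leucine-binding sestrin, fell as SESN3 rose, with 35.1, 34.4 and 35.7 CPM after lncSLCC1 siRNA and 54.5, 49.8 and 39.9 CPM in controls (-0.46 with SE 0.120, edgeR adjusted p = 0.0351). The SESN2 call was lost without control replicate 2 or any 1 lncSLCC1 siRNA replicate (adjusted p = 0.122 to 0.146). DDIT4, the stress-induced gene REDD1 that activates the TSC complex, was the 1 call among 4 tested energy and stress inputs. It stood at 15.1, 14.0 and 15.3 CPM after lncSLCC1 siRNA, against 26.5, 25.6 and 21.5 CPM in controls (-0.73 with SE 0.117, edgeR adjusted p = 0.00489). SESN3 thus rose while SESN2 and DDIT4, which also restrain mTOR complex 1, fell.

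Among substrates and translation outputs of mTOR complex 1, 3 of 15 rose and 1 fell (median -0.02). ULK1, the kinase that starts autophagy and is restrained by mTOR complex 1, stood at 54.5, 55.5 and 58.8 CPM after lncSLCC1 siRNA, against 42.1, 41.7 and 39.8 CPM in controls (log2 fold change 0.45 with SE 0.086, edgeR adjusted p = 0.0103). EIF4EBP1, the translation repressor that mTOR complex 1 inactivates, stood at 63.0, 55.4 and 56.3 CPM after lncSLCC1 siRNA, against 102, 80.8 and 70.2 CPM in controls (-0.53 with SE 0.132, edgeR adjusted p = 0.0282). Each kept the groups apart, the controls of EIF4EBP1 being the more scattered. LPIN1, a lipid phosphatase gene, rose by 0.38 (SE 0.099, adjusted p = 0.0352), and PDCD4, a translation inhibitor named after its values were seen as the last of the 3 risers, by 0.35 (SE 0.101, edgeR adjusted p = 0.0457). The S6 kinase genes did not pass the test, with RPS6KB1 at -0.02 (adjusted p = 0.96) and RPS6KB2 at -0.24 (edgeR adjusted p = 0.145). The calls of ULK1, EIF4EBP1, LPIN1 and PDCD4 were lost without control replicate 2 or any 1 lncSLCC1 siRNA replicate (adjusted p = 0.0567 to 0.180). That of PDCD4 was also lost with GC content and length offsets, at a log2 fold change of 0.20 (edgeR adjusted p = 0.0636).

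Of 10 genes for AKT substrates 1 rose and 0 fell (median 0.05). GSK3B, the glycogen synthase kinase that AKT inhibits, stood at 103, 104 and 106 CPM after lncSLCC1 siRNA, against 69.2, 81.9 and 90.3 CPM in controls (log2 fold change 0.37 with SE 0.102, edgeR adjusted p = 0.0391). Its relative GSK3A had values on the other side in every library, at 56.3, 56.2 and 56.5 CPM after lncSLCC1 siRNA and 74.4, 67.0 and 61.5 CPM in controls, without passing the test (-0.26 with SE 0.093, edgeR adjusted p = 0.0861). FOXO1 and FOXO3 did not pass the test (0.19 and 0.01, adjusted p = 0.48 and 0.946 by edgeR). Of 7 tested FOXO target genes outside the other lists 1 rose and 1 fell (median 0.37). CCNG2, an atypical cyclin linked to growth arrest, stood at 9.76, 9.64 and 12.2 CPM after lncSLCC1 siRNA, against 5.20, 5.99 and 7.74 CPM in controls (0.73 with SE 0.174, edgeR adjusted p = 0.0242). CITED2, a transcriptional coregulator, fell by 0.30 on the log2 scale (SE 0.084, edgeR adjusted p = 0.0425). The calls of GSK3B, CCNG2 and CITED2 were lost without control replicate 2 or any 1 lncSLCC1 siRNA replicate (adjusted p = 0.0687 to 0.184), and that of CITED2 also with library totals (adjusted p = 0.0783). With GC content and length offsets the log2 fold change of GSK3B was 0.23 (edgeR adjusted p = 0.00455).

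**Figure D5:**
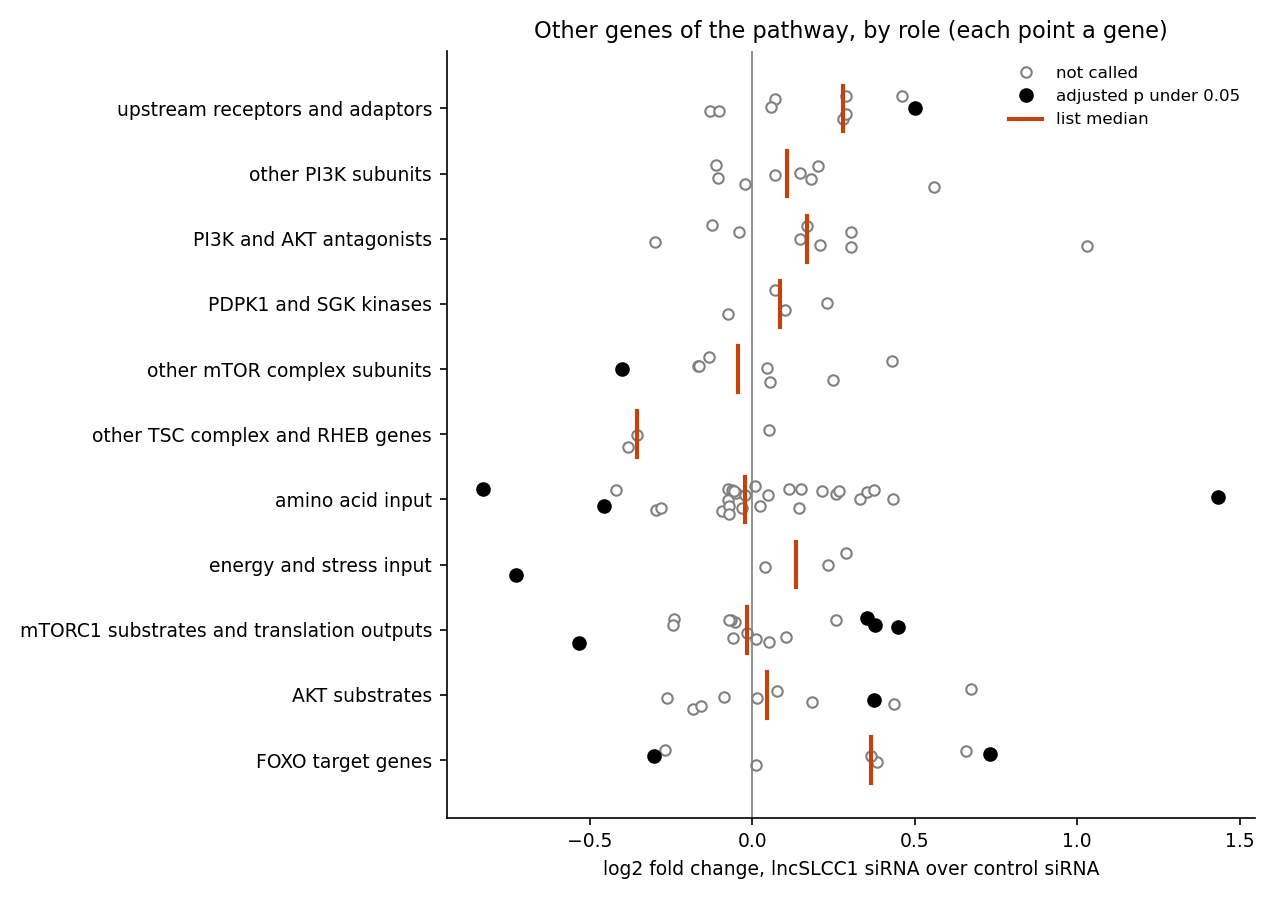
Log2 fold change (x axis, lncSLCC1 siRNA over control siRNA) of each tested gene in the 11 lists of pathway genes, 1 row per list; filled points passed an adjusted p of 0.05 and the vertical bar marks the list median. The farthest points are SESN3, at 1.43, and LAMTOR2, at -0.83, in the amino acid input list.

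For likeness, the log2 CPM profiles of tested genes over the 6 libraries were centred on their own means and compared with those of PIK3CA and RPTOR, the 2 members with the smallest p. The nearest to PIK3CA among 10437 genes were USO1, a vesicle tethering factor gene, PCMTD1 and SKA2, a kinetochore gene, at root mean square differences of 0.044, 0.050 and 0.053 on the log2 scale. Their log2 fold changes were 0.63, 0.76 and 0.73, and their transcripts hold 38.9%, 35.2% and 37.4% G and C. Because they were picked by profile over the same 6 libraries, fold changes near that of PIK3CA follow from the choice. The nearest to RPTOR were FAM168A, CEP250, a centrosome gene, and ARNT2, a transcription factor gene, at differences of 0.025 each. These had log2 fold changes of 0.22, 0.25 and 0.24, and none was called.

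In the series as a whole, gene reads per library ran from 12572277 to 15262872 after lncSLCC1 siRNA and from 14873343 to 15568075 in controls. The targeted RNA, RP11-400N13.2, averaged 2.13 ± 0.479 CPM after lncSLCC1 siRNA and 7.85 ± 2.30 CPM in controls (SD, n = 3 each), and its groups did not overlap. Of 10 colorectal epithelial markers, KRT8 was the most abundant and CDX1 was near 0, and their summed level was 6039 to 6360 CPM after lncSLCC1 siRNA and 5922 to 7330 CPM in controls. Of 10 markers of leukocytes, fibroblasts, endothelium and hepatocytes, DCN and PECAM1 had 0 reads in every library, and the summed level of the 10 was 3.19 to 3.51 CPM after lncSLCC1 siRNA and 2.47 to 2.93 CPM in controls. Within these lists VIL1, an epithelial marker, was called higher (log2 fold change 0.87, edgeR adjusted p = 0.00618), as was PDGFRB, a fibroblast marker at 0.864 to 1.56 CPM after lncSLCC1 siRNA and 0.427 to 0.716 CPM in controls (1.28, edgeR adjusted p = 0.0448), and their part in the results was not tested.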

How the data were processed

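Total RNA of DLD-1 cells was sequenced in 3 libraries per group. The authors deposited raw read counts per gene symbol. TopHat2 2.0.11 and HTSeq, with builds hg19 and GRCh37, are named in the submitters' processing notes; the sources used here give neither strand setting nor annotation release. HTSeq summary lines were left out; unassigned to a feature were 5.42% to 7.58% of reads, ambiguous 8.83% to 10.1% and not uniquely aligned 12.8% to 13.8%, which bears on PIK3CA, known to have a partial copy elsewhere in the genome.

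Groups came from the sample titles. All genes were tested with edgeR 4.0.16 (R 4.3.3), quasi-likelihood test, TMM library sizes, default expression filter and no covariate, with Benjamini-Hochberg adjustment over all tested genes. CPM used TMM library sizes, and log2 CPM a prior count of 2 reads. Standard errors are the log2 fold change over the square root of F. The biological coefficient of variation was 10.9%. The fit was tried on simulated counts with the same spread in every library. The groups here differ in spread, so that trial does not cover them. Counting error limits precision at low reads.

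Named were the 9 genes, the targeted RNA, up to 3 called genes with the smallest p per list, PDCD4 as the 1 other called gene of the lists, and the 3 nearest profiles of each of 2 members; genes given as not called were added for their role, and some genes of the lists are not reported by name here. The members and lists were chosen with earlier results of these data known. GC content and length came from the longest GENCODE 29 transcript, found for 89.4% of tested genes, and offsets from splines with 5 degrees of freedom. Promoter sequences are RefSeq's, GRCh38.p14, which is not the build of the counts. Alternatives were DESeq2 1.42.0, limma-voom (limma 3.58.1), other scalings and filters, the replicate number as a block, these offsets, and each library left out. No pair of libraries of 1 group agreed within sampling noise; the chi-square per gene was 1.79 to 1.90 between lncSLCC1 siRNA libraries and 5.46 to 28.0 between controls.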

Additional observations from a re-analysis of the deposited data

How the results depend on the processing

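The direction of PIK3CA, AKT2, MTOR, RPTOR, RICTOR and TSC2 was the same in all 14 alternatives, and no alternative turned a called member. With library totals, 1441 of 15242 tested genes were higher and 821 lower. In that fit 2 of the 9 genes (RPTOR at 0.32) and 13 pathway genes were higher, and AKT1 turned to 0.0121. With no filter on low counts, 1600 of 30025 tested genes were higher and 1672 lower. There 14 pathway genes and 2 of the 9 were higher (RICTOR at 0.37). With GC content and length offsets, 1807 genes were higher and 2936 lower, as were 16 and 16 pathway genes and 2 and 2 of the 9 (RPTOR at 0.20, PIK3R1 at -0.24, AKT2 at -0.16), and TSC1 turned to -0.0791. The cause of these shifts was not tested.

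With 1 library left out, 213 to 2112 genes were called higher and 244 to 2431 lower, 1 to 22 pathway genes higher and 2 to 18 lower, and 0 to 3 of the 9 genes higher, the most in each case without control replicate 1. Log2 fold changes then ran from 0.47 to 0.82 for PIK3CA, 0.14 to 0.27 for MTOR, 0.20 to 0.28 for RPTOR, -0.19 to 0.02 for PIK3R1 and -0.0259 to 0.0381 for TSC1, which turned to -0.0259, -0.00138 and -0.0112 without control replicate 1, control replicate 2 and lncSLCC1 siRNA replicate 2. PIK3R1 turned to 0.0236 without control replicate 3. The log2 ratio of RPTOR to RICTOR differed by -0.22 between groups over all libraries and by 0.20 without control replicate 1. Of the 13 named pathway genes, 3 (SESN3, LAMTOR2 and DDIT4) were called in every alternative. The 13 were named because they were called with all 6 libraries, when 984 genes were higher and 1126 lower. The fit with the fewest calls had 213 higher and 244 lower. The share of all called genes that kept their call in every alternative is not given here. The titles do not state whether the replicate numbers pair the samples. Same-numbered libraries deviated from their group means with correlations of 0.0942, 0.00135 and -0.0159. Only replicate 1 correlated best with its own number in both groups. With 3 libraries a group, these correlations cannot decide whether samples were paired. With the replicate number as a block, 993 genes were higher and 1059 lower and 1 of the 9 was called (984, 1126 and 1 without it), and the calls of LPIN1, CITED2 and PDCD4 were lost (adjusted p = 0.0591, 0.0541 and 0.0591). PIK3CA had the fewest reads of the 9 genes, so depth limits it most.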
